A study of Mus musculus with 6 samples.

Results

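The 41 DNA damage repair genes examined here were taken by symbol from the deposited table of 27198 genes, and each of the 41 was found once and passed the filter on low counts, Lig4 only through its counts in l-FA. They were divided into 9 Fanconi genes, 10 genes of homologous recombination, 7 of break sensing and checkpoint signaling, 6 of end joining, 3 of mismatch repair and 6 of excision repair. RNA was measured in hematopoietic stem cells (HSCs) of bone marrow, sorted as lineage-negative, Sca1-positive, c-Kit-positive cells that lacked CD34 and Flk2 (CD135). The 3 Ctrl libraries came from wild-type, non-irradiated mice given vehicle, and the 3 l-FA libraries from wild-type, non-irradiated mice given ferulic acid (FA), a plant phenolic antioxidant, over the long term. By the study's methods all mice were male C57BL/6 animals of 8 to 10 weeks, and FA was injected intraperitoneally at 50 mg/kg body weight each day for 30 days. How many mice stand behind a library is not stated, so n counts libraries, and the p-values measure only the spread between these libraries, which may be technical.

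DNA repair is divided among pathways that handle different lesions. Crosslinks between strands are unhooked under the Fanconi pathway, in which a core complex attaches ubiquitin to the FANCD2 and FANCI clamp. Double-strand breaks are sensed by the MRN complex and the kinase ATM, and are sealed either by homologous recombination with the sister chromatid or by direct end joining. Mismatch repair corrects replication errors, while base and nucleotide excision repair replace damaged bases. HSCs are known to depend on these pathways, and inherited loss of Fanconi genes causes bone marrow failure.

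The repair genes showed many small shifts in both directions. At an adjusted p under 0.05 (edgeR's quasi-likelihood test on counts, Benjamini-Hochberg adjustment over all 16520 genes tested), 12 of the 41 were higher and 12 lower in l-FA than in Ctrl HSCs. Together these are 58.5% of the members, beside 50.5% of all genes tested (25.5% higher and 25% lower) and 54.6% of the well-counted genes (mean count 100 or more), so the share of repair genes called was near the background. The changes were small, and log2 fold changes of l-FA over Ctrl are given ± their standard error. Of the 41 genes, 35 had a log2 fold change under 0.5 in size, the median size of change was 0.21, beside 0.29 over all genes tested and 0.23 over the well-counted genes, and the median signed change was 0.01. The 2-fold limit of the study's methods was passed by 11.8% of all genes tested and 3.9% of the well-counted genes. Of the members it was passed by Lig4 alone. With its low Ctrl counts Lig4 could be tested only if l-FA was higher, so its pass carries no weight. It is still counted among the 12 higher members, and drops out where a minimum of 10 counts is asked of each library. A test against a change of 1.2-fold (edgeR's glmTreat) was passed by 6 members. They were Fancm, Brca1 and Xrcc5 (higher), Chek1 and Exo1 (lower), and Lig4 (higher) with the limit just given.

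The balance of directions depended on scaling. With library totals alone, in place of TMM factors that allow for a change in RNA composition, 16 members were higher and 6 lower, and 61.6% rather than 50.4% of the genes called were higher. That scaling moved the median log2 fold change of all genes tested from 0.0035 to 0.082. The number of lower members was 7 without Ctrl library 2 and 7 without l-FA library 1, and the 24 calls in all ranged from 18 to 24 when each library was left out in turn.

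**Figure D1:**
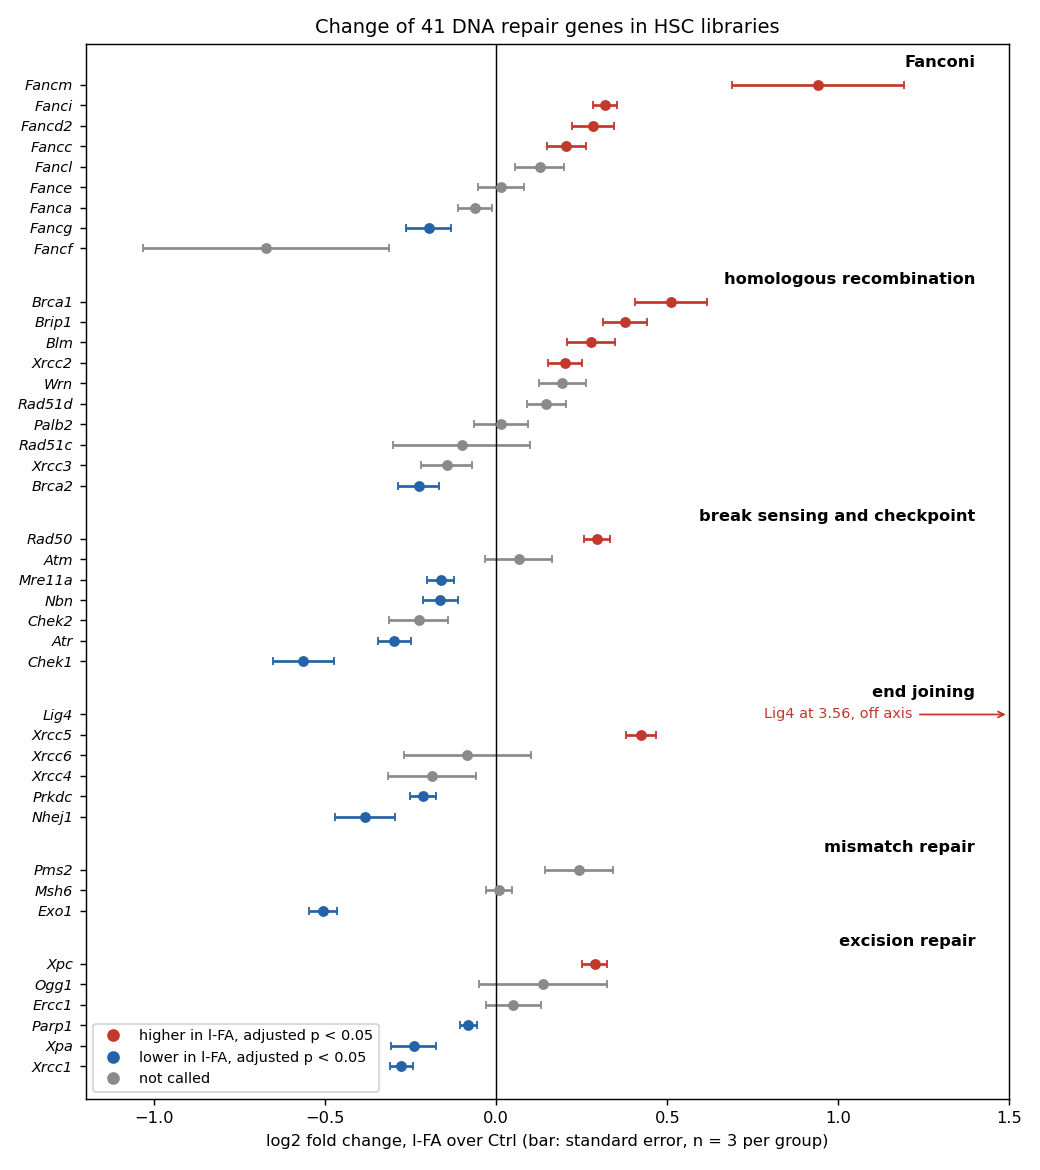
Fitted log2 fold change of l-FA over Ctrl (x axis) for the 41 repair genes, grouped by pathway (y axis). Points are edgeR estimates, bars are standard errors from 3 libraries per group, and color marks the call. The Fanconi (9 genes) and recombination (10 genes) groups hold 8 of the 12 higher genes, and the checkpoint group (7 genes) holds 4 of the 12 lower genes. Over all genes tested, 25.5% were higher and 25% lower, and no difference between groups was tested. Lig4, which was tested only through l-FA, is among the higher genes and lies off the axis at 3.56.

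Each library held between 19287735 and 20380610 counts, of which the 41 genes took 0.287% to 0.302% in Ctrl and 0.315% to 0.323% in l-FA. These shares are of library totals and leave out the TMM factors, which were 0.9685 to 0.9787 in Ctrl and 1.025 to 1.032 in l-FA. The gap between the groups therefore includes that scaling and is not read as a rise of repair RNA. In 38 of the 41 genes every library had at least 100 counts. Between libraries of one group the median chi-square over all genes tested was 0.89 to 1.09 (0.455 is the value for pure counting error), against 8.2 to 8.83 for libraries of different groups. Over the repair genes it was 1.82 to 2.79 between Ctrl libraries and 0.61 to 0.713 between l-FA libraries, so that these genes varied more among the Ctrl libraries. Of 14 HSC markers 9 were higher and 1 lower in l-FA, with a summed level of 183 to 188 FPKM in Ctrl and 233 to 234 in l-FA. Of the markers tested, 71.4% were called for HSCs and 92.9% for neutrophils and monocytes, beside 50.5% of all genes tested. The share was 50% for each of the erythroid and megakaryocyte, the lymphoid, and the stromal and endothelial lists, which is near that background. Of 14 neutrophil and monocyte markers, 12 were lower and 1 higher in l-FA, and their summed level was 7719 to 7848 FPKM in Ctrl and 1778 to 1826 in l-FA. Of 10 erythroid and megakaryocyte markers 4 were higher and 1 lower (74.4 to 79.4 and 97 to 99.2 FPKM in sum), and of 4 tested of 7 stromal and endothelial markers 2 were higher and 0 lower in edgeR's test (13.7 to 14.3 and 18.3 to 19 FPKM in sum). In bulk samples, fewer cells of a type and less RNA per cell cannot be told apart. Of 11 lymphoid markers, 5 had at most 10 counts in every library, among them Pax5 and Cd3e. Of the 6 tested, 2 were higher (Dntt and Cd79b) and 1 lower (Nkg7), with a median log2 fold change of 0.15, while the summed level, most of it Nkg7 and Dntt, was 491 to 508 FPKM in Ctrl and 426 to 434 in l-FA. Of 19 S-phase genes, 0 were higher and 8 lower in edgeR's test, and their summed level was 1154 to 1156 FPKM in Ctrl and 1135 to 1151 in l-FA. Of 18 genes of G2 and mitosis 4 were higher and 7 lower, with sums of 719.6 to 738 and 727 to 744 FPKM. The share called was 42.1% for the S-phase genes and 61.1% for those of G2 and mitosis. The part of these shifts in the repair gene results was not tested.

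Per kilobase, the repair genes spanned a wide range of levels, and the order was led by excision and mismatch repair. The highest was Parp1, the sensor of strand breaks that builds poly(ADP-ribose), with 80.7 ± 1.82 FPKM (SD, n = 3) in Ctrl and 80.5 ± 0.385 FPKM (SD, n = 3) in l-FA. It was followed by Msh6, a mismatch-binding subunit, with 60.8 ± 2.27 and 64.5 ± 1.56 FPKM, and by Xpc, which recognizes distorted DNA, with 41.8 ± 0.857 and 53.8 ± 2.08 FPKM. The Ku gene Xrcc6 and the MRN genes Rad50 and Nbn came next, with means over the 6 libraries of 30.2, 27.5 and 24 FPKM. At the other end were Fancf (1.07 FPKM), Rad51c (0.998), Fancm (0.917) and Lig4 (0.0601). FPKM is scaled to the library total without the composition factors, so the FPKM of the groups and the fitted changes can differ slightly, as for Parp1. The order between genes also depends on the length that the FPKM implies, such as 27958 bases for Atr and 1586 for Nhej1. Those lengths were not checked against the transcripts present.

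**Figure D2:**
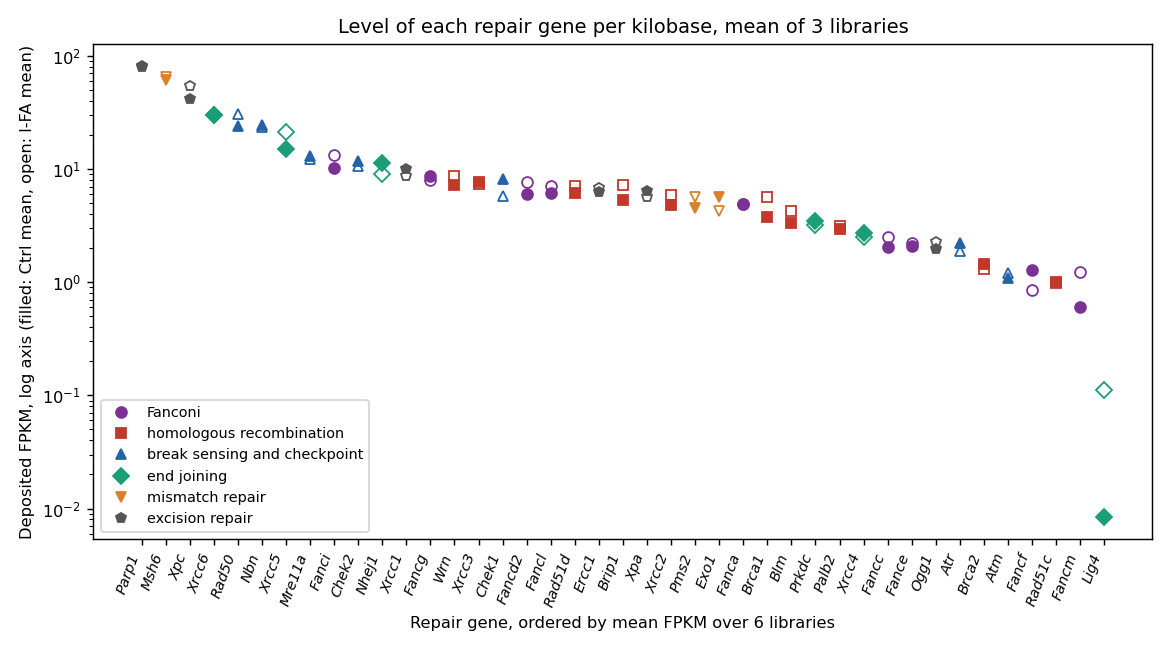
Deposited FPKM on a log axis (y axis) for each repair gene (x axis, ordered by the mean over 6 libraries), with filled symbols for the mean of 3 Ctrl and open symbols for the mean of 3 l-FA libraries, and shape and color for pathway. Levels run from about 80 FPKM for Parp1 to under 0.2 FPKM for Lig4, and the filled and open symbols lie close together for most genes.

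The promoters of 4 of the 6 members past the 1.2-fold test are shown (the others are Lig4 and Exo1), because these genes passed the stricter test and changed in opposite directions, 3 higher and 1 lower. The windows run from 250 bases before to 50 bases after the RefSeq start on GRCm38.p6. Capitals mark a CCAAT box (CCAAT) or an E2F-type match (TTTGGCG or TTTCGCG), each on either strand; these motifs do not overlap each other in the windows shown. Fancm lies at chr12:65075353-65075652 (plus strand), Brca1 at chr11:101551906-101552205 (minus strand), Xrcc5 at chr1:72307171-72307470 (plus strand) and Chek1 at chr9:36726609-36726908 (minus strand).
Fancm: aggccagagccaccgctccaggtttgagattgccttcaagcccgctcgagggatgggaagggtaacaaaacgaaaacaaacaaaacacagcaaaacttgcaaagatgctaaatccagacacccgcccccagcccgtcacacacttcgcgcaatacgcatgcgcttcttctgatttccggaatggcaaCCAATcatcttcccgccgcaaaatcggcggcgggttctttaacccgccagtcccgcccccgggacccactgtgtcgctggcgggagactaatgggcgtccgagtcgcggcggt
Brca1: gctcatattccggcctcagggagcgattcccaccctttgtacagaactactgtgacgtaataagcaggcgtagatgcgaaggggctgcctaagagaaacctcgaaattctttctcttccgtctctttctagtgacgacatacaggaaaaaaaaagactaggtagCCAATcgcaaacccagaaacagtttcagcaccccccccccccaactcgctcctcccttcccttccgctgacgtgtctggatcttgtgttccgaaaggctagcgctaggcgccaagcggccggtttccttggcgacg
Xrcc5: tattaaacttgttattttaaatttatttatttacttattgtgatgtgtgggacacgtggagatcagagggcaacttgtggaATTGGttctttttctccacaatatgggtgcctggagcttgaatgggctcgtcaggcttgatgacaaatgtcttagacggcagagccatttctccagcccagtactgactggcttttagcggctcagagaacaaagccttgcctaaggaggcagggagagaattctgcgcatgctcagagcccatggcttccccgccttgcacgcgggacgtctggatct
Chek1: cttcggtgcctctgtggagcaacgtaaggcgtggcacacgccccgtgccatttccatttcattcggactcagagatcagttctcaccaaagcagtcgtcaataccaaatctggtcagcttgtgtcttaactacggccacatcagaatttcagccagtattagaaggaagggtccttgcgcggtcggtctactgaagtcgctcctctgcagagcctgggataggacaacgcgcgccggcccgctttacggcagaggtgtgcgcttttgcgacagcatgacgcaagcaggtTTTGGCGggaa
The 3 windows of higher genes shown each held 1 CCAAT match and no E2F-type match, and that of Chek1 held 1 E2F-type match and no CCAAT match. Lig4, a higher gene not shown, had neither motif in its windows. RefSeq windows were found for 32 of the 41 members (34 windows), the others being Rad50, Prkdc, Xpc, Fancd2, Rad51d, Exo1, Xrcc2, Wrn and Nbn. E2F-type letters were in 4 of the 34 windows (11.8%), beside 2.37% of 32851 windows of all genes, and those 4 belonged to Brip1 (higher), Brca2 and Chek1 (lower) and Rad51c (not called). CCAAT was in 20 of the 34 (58.8%, beside 37.4% of all windows), 6 of 9 windows of higher genes, 3 of 9 of lower genes and 11 of 16 of genes not called. The cell cycle element TTTGAA, on either strand, was in 0 of the 34 and in 17.9% of all windows. A match is a run of letters and not a measured binding site.

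Among the Fanconi genes, 4 of 9 were higher and 1 lower in l-FA, with a median log2 fold change of 0.13 (0.0035 over all genes tested). Both subunits of the clamp rose. Fanci had 71.7, 74.6 and 71.5 CPM (TMM-normalized counts scaled to a common library size) in the 3 Ctrl libraries, in order, and 88.4, 91.3 and 91.7 in the 3 l-FA libraries. Every l-FA library lay above every Ctrl library, and the log2 fold change was 0.32 ± 0.036 (adjusted p = 0.000539). Fancd2 had 57.2, 63.6 and 58.4 CPM in Ctrl and 69, 77.6 and 71.4 in l-FA, again without overlap (log2 fold change 0.28 ± 0.062, adjusted p = 0.00911). The ratio of Fancd2 to Fanci by FPKM was 0.574 to 0.613 in Ctrl and 0.56 to 0.611 in l-FA, with overlapping ranges.

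Fancm, whose product anchors the core complex on DNA, had the largest change of the group. It had 7.5, 5.9 and 12.3 CPM in Ctrl and 16.8, 16.1 and 16.6 in l-FA. The l-FA libraries were close to each other and all above the Ctrl libraries, which spread more than 2-fold between the lowest and the highest. The log2 fold change was 0.94 ± 0.25 (adjusted p = 0.0202), and the call was lost without Ctrl library 1 (adjusted p = 0.0641) or l-FA library 1 (adjusted p = 0.052) and kept in the 4 other such fits. The called genes of the core complex itself moved less. Fancc rose by 0.21 ± 0.056 (adjusted p = 0.0223) and Fancg fell by 0.20 ± 0.066 (adjusted p = 0.0451), and neither call held in every fit that left out 1 library (highest adjusted p 0.0596 and 0.145). Fancg lost its call when any of Ctrl libraries 1, 2 and 3 or l-FA libraries 1 and 2 was left out, and Fancc without Ctrl library 2 or l-FA library 3. Fancl, the ubiquitin ligase (0.13 ± 0.072), Fanca (-0.06 ± 0.050) and Fance (0.01 ± 0.068) did not pass. Fancf had 3.49, 1.55 and 1.71 CPM in Ctrl and 1.48, 1.1 and 1.65 in l-FA, with overlapping groups and a log2 fold change of -0.67 whose standard error was 0.36 (adjusted p = 0.166).

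**Figure D3:**
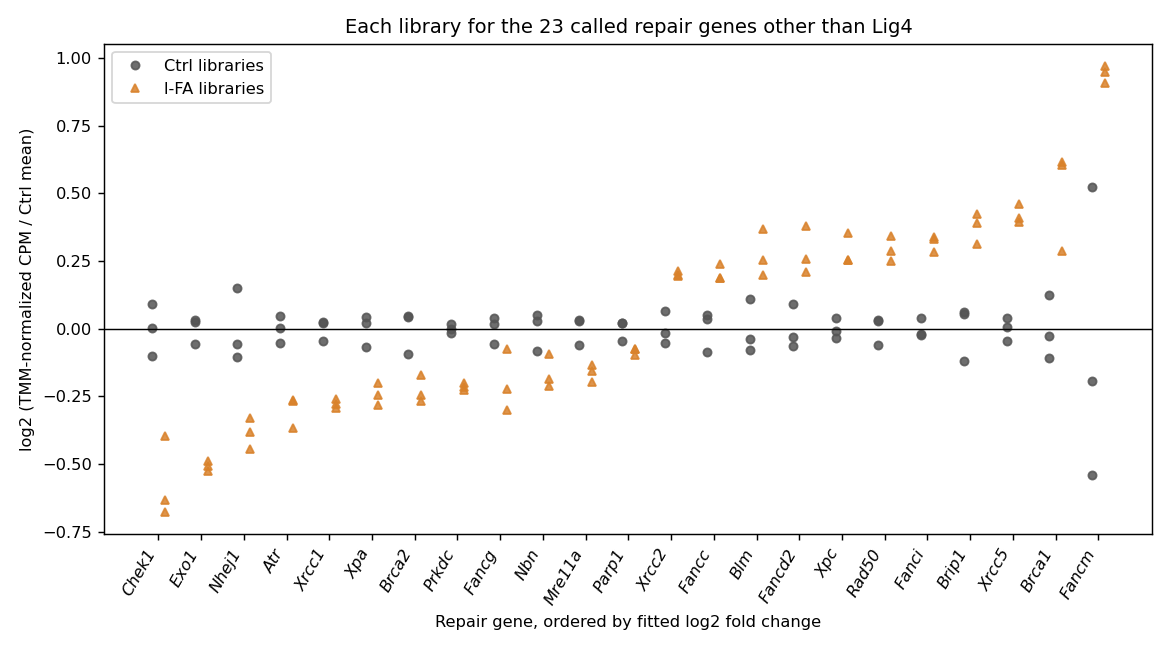
Each point is 1 library (circles Ctrl, triangles l-FA), drawn as the log2 ratio of its TMM-normalized CPM to the mean of the 3 Ctrl libraries (y axis) for the 23 called repair genes other than Lig4 (x axis, by fitted change). In each of these genes the 3 triangles lie on one side of the 3 circles, and the circles of Fancm spread more than those of any other gene plotted.

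Homologous recombination showed the same mix, with 4 of 10 genes higher, 1 lower and 5 not called (median log2 fold change 0.17). Brca1, whose product promotes resection of break ends and brings in the recombination machinery, was higher in l-FA. It had 49.5, 42 and 44.5 CPM in Ctrl and 68.9, 55.3 and 69.5 in l-FA, with l-FA library 2 the lowest of its group but still above all Ctrl libraries. The log2 fold change was 0.51 ± 0.11 (adjusted p = 0.00689), with a range of 0.46 to 0.62 over the fits that left out 1 library. Brip1, a helicase that binds BRCA1, had 42.7, 37.9 and 43 CPM in Ctrl and 51.2, 54 and 55.2 in l-FA, without overlap (log2 fold change 0.38 ± 0.063, adjusted p = 0.00291). The genes of other BRCA1 partners gave other values. Palb2, which bridges BRCA1 and BRCA2, had 36.5, 35.4 and 30.5 CPM in Ctrl and 33.3, 34.1 and 36 in l-FA (log2 fold change 0.02 ± 0.079, adjusted p = 0.892). Brca2, a mediator of recombination, fell by 0.23 ± 0.061 on the log2 scale (adjusted p = 0.0204). Its call was lost without Ctrl library 1, Ctrl library 2, l-FA library 2 or l-FA library 3 (highest adjusted p 0.074), and with library totals alone.

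Of Xrcc2, Xrcc3, Rad51c and Rad51d, which act in homologous recombination, only Xrcc2 passed in edgeR's test (0.20 ± 0.050, adjusted p = 0.0149). Rad51d had a log2 fold change of 0.15 ± 0.056 (adjusted p = 0.0684), Xrcc3 of -0.14 ± 0.074 (adjusted p = 0.153) and Rad51c of -0.10 ± 0.20 (adjusted p = 0.707). Counts of Rad51c were 96 to 146 per library. Of the RecQ helicases, which unwind recombination intermediates, the members Blm and Wrn had positive estimates. Outside the members, Recql4 (-0.48 ± 0.086, adjusted p = 0.00366) and Recql5 (-0.20 ± 0.052, adjusted p = 0.0194) were lower in edgeR's test. Blm was higher by 0.28 ± 0.070 (adjusted p = 0.0167; not called without Ctrl library 1 or Ctrl library 3, highest adjusted p 0.055), and Wrn had an estimate of 0.19 that did not pass (standard error 0.069, adjusted p = 0.0553).

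The MRN complex, which holds broken ends and activates ATM, showed unequal changes of its subunits. Rad50, the hinged ATPase of the complex, had 168, 167 and 157 CPM in Ctrl and 195, 200.5 and 208 in l-FA, and the groups did not overlap (log2 fold change 0.29 ± 0.038, adjusted p = 0.000998). The nuclease gene Mre11a went the other way, from 100.3, 100.7 and 94.4 CPM to 85.8, 88.4 and 89.8 (log2 fold change -0.16 ± 0.039, adjusted p = 0.0137). So did Nbn, the adaptor that recruits ATM, from 77.1, 76 and 70.3 CPM to 65.4, 64.4 and 69.8 (log2 fold change -0.16 ± 0.052, adjusted p = 0.0385). In FPKM the ratio of Rad50 to Mre11a was 1.83 to 1.84 in Ctrl and 2.5 to 2.56 in l-FA, and that of Rad50 to Nbn 0.954 to 0.982 and 1.31 to 1.37, while Mre11a to Nbn was 0.518 to 0.534 and 0.512 to 0.547. A ratio within a library does not depend on how libraries are scaled, but the pairs compared here were chosen after their values were seen, so the ratios are a description. The fall of Mre11a was not called without l-FA library 1 (adjusted p = 0.0564), that of Nbn not without Ctrl library 1, Ctrl library 2, l-FA library 1 or l-FA library 2 (highest adjusted p 0.139), and neither was called with library totals alone.

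The checkpoint kinases had estimates below 0 except for Atm. Chek1, which halts the cycle when replication stalls, had 52.6, 56.5 and 60.1 CPM in Ctrl and 36.3, 42.8 and 35.3 in l-FA. The highest l-FA library was below the lowest Ctrl library, and the log2 fold change was -0.56 ± 0.089 (adjusted p = 0.00216). Its upstream kinase Atr fell from 66, 63.9 and 61.6 CPM to 53.1, 49.5 and 53.2 (log2 fold change -0.30 ± 0.048, adjusted p = 0.00235). Both were called in all 6 fits that left out 1 library. Chek2, the kinase that acts below ATM, had 50.1, 61.9 and 51.3 CPM in Ctrl and 45.2, 47.1 and 47.3 in l-FA, and did not pass although the groups did not overlap (log2 fold change -0.23 ± 0.085, adjusted p = 0.0649). Atm had 13.4, 14.5 and 13.1 CPM in Ctrl and 12.7, 14.7 and 15.6 in l-FA, with overlapping groups (0.07 ± 0.098, adjusted p = 0.612).

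**Figure D4:**
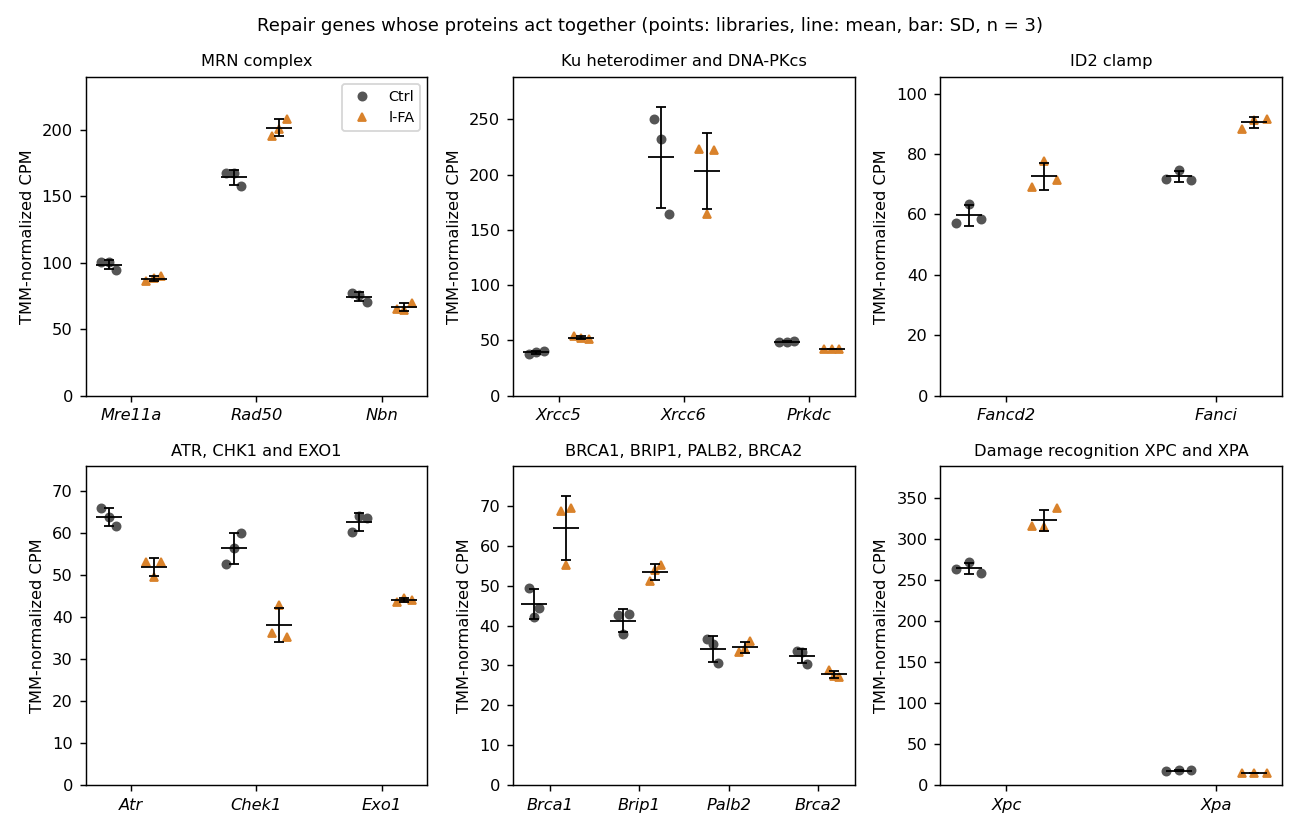
TMM-normalized CPM (y axis, from 0) of repair genes whose proteins act together (x axis), with 1 point per library (circles Ctrl, triangles l-FA), a line for the mean and a bar for the SD of 3 libraries. Rad50 is higher and Mre11a and Nbn lower in l-FA, Fancd2 and Fanci are both higher, Atr, Chek1 and Exo1 are all lower, and the Xrcc6 libraries of the 2 groups overlap.

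End joining was split as well, with 2 of 6 genes higher (Xrcc5, and Lig4 with the limit given below) and 2 lower. Xrcc5, the larger subunit of the Ku ring that slides onto broken ends, had 37.9, 39.3 and 40.2 CPM in Ctrl and 54, 52 and 51.5 in l-FA, a log2 fold change of 0.42 ± 0.044 (adjusted p = 0.000406). All l-FA libraries were above all Ctrl libraries. Its partner Xrcc6 had 251, 233 and 164 CPM in Ctrl and 223, 164 and 223 in l-FA. Here 1 library of each group lay well below the others, the groups overlapped, and the estimate of -0.08 had a standard error of 0.18 (adjusted p = 0.733). Xrcc6 overlaps Desi1 in the table's coordinates, and no source says if counting was strand-aware. Prkdc, the kinase that Ku recruits, had 48.7, 48.3 and 49.4 CPM in Ctrl and 42.5, 41.7 and 42 in l-FA (log2 fold change -0.21 ± 0.038, adjusted p = 0.00353).

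For the ligation step, 1 gene was lower, 1 was not called and 1 was close to the limit of counting. Nhej1, which encodes the factor XLF that aligns ends for ligation, fell from 17.1, 20.4 and 17.7 CPM to 14.6, 14.1 and 13.5 (log2 fold change -0.38 ± 0.088, adjusted p = 0.0106). Xrcc4, the scaffold of the ligase, did not pass (-0.19 ± 0.13, adjusted p = 0.266). Lig4, the ligase itself, was read 0, 4 and 0 times in the 3 Ctrl libraries, in order, and 18, 17 and 19 times in the 3 l-FA libraries. The groups did not overlap, but the Ctrl value rests on 4 counts in 1 library. The gene passed the filter on low counts through the l-FA libraries alone. With these Ctrl counts it could be tested only if l-FA was higher. From the summed counts, 4 and 54, l-FA was 13.5-fold higher. The exact 95% binomial interval of 4.98 to 51.3 takes reads as independent and leaves out the spread between libraries. It may be too narrow and is no test of a gene that entered through l-FA. The fitted log2 fold change of 3.56 is therefore given as a description, without its test. It was 7.16 without Ctrl library 2 and depends on the prior count that the fit adds.

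In mismatch repair 1 of 3 genes passed. Exo1, an exonuclease that removes the mismatched strand and also resects double-strand breaks, had 60.2, 64.1 and 63.8 CPM in Ctrl and 43.6, 44.7 and 44.1 in l-FA. The libraries of each group were close together and the groups well apart, with a log2 fold change of -0.51 ± 0.042 (adjusted p = 0.000166), the smallest adjusted p of the 41 genes. Msh6 had 306, 323 and 298 CPM in Ctrl and 303, 320 and 308 in l-FA, and its log2 fold change of 0.01 with a standard error of 0.037 did not pass (adjusted p = 0.884). Pms2, an endonuclease subunit that nicks the strand to be replaced, had an estimate of 0.24 that did not pass (standard error 0.099, adjusted p = 0.0835).

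In excision repair 1 of 6 genes was higher and 3 were lower. The nucleotide excision genes Xpc and Xpa moved apart. Xpc had 263, 271 and 258 CPM in Ctrl and 315, 315 and 337 in l-FA (log2 fold change 0.29 ± 0.036, adjusted p = 0.000871). Xpa, which checks the lesion once the helix is open, had 16.5, 17.9 and 17.6 CPM in Ctrl and 14.2, 15.1 and 14.6 in l-FA (log2 fold change -0.24 ± 0.066, adjusted p = 0.0214). Neither gene's groups overlapped, and the ratio of Xpc to Xpa by FPKM was 6.28 to 6.8 in Ctrl and 8.94 to 9.87 in l-FA. The Xpa call was lost without Ctrl library 2, l-FA library 1 or l-FA library 3 (highest adjusted p 0.0773), and with library totals alone (adjusted p = 0.0787). Ercc1, part of the nuclease that cuts beside the lesion, did not pass (0.05 ± 0.081, adjusted p = 0.644).

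Of the base excision and strand break genes, Xrcc1, the scaffold that gathers ligase and polymerase at single-strand breaks, was lower. It had 96.1, 100.7 and 101.1 CPM in Ctrl and 81.8, 81.1 and 83 in l-FA (log2 fold change -0.28 ± 0.034, adjusted p = 0.000806). Parp1 was lower by a small step, from 622, 622 and 593 CPM to 573, 581 and 581 (log2 fold change -0.08 ± 0.025, adjusted p = 0.0313). Its call was lost in 5 of the 6 fits that left out 1 library (all but the fit without Ctrl library 3), and the estimate was near 0 with library totals alone. Ogg1, the glycosylase for oxidized guanine, had 12.8, 9.54 and 12.9 CPM in Ctrl and 15.2, 13.6 and 10 in l-FA. Its groups overlapped, and its estimate of 0.14 had a standard error of 0.19 and did not pass (adjusted p = 0.585).

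Set side by side, the median log2 fold change was 0.13 for the Fanconi genes, 0.17 for homologous recombination, -0.16 for break sensing and checkpoint, -0.14 for end joining, 0.01 for mismatch repair and -0.02 for excision repair. The share called was 55.6%, 50%, 71.4%, 66.7%, 33.3% and 66.7% in that order, over 3 to 10 genes each and beside a background of 50.5%. The end joining values include Lig4, which was tested only through l-FA. Where at least 10 counts were asked of each library, Lig4 dropped out. Then 3 of 5 end joining genes were called, with a median of -0.18. The first 4 medians kept their sign under all 14 alternative settings. Those of mismatch and excision repair did not (3 and 4 settings had the other sign). All of these settings use the same 6 libraries and the same members. Among repair genes outside the 41, the median was 0.013 for Fanconi and -0.03 for recombination, the latter with the other sign. It was -0.08 there for sensing and checkpoint and -0.03 for end joining. Every member that was called kept the sign of its change under every alternative, library totals included. No difference between the pathways was tested. The 3 libraries of one group lay on one side of those of the other for 26 of the 41 genes. That is near the share of all genes tested, 60.3%. Lig4 is among the 26, and as it entered through l-FA alone it carries no weight there.

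A further 120 repair genes outside the 41 were read from the same fit, of which 119 were tested. Of these, 23 were higher and 34 lower (47.9%, beside 50.5% of all genes tested), with a median log2 fold change of -0.02. Past the 2-fold limit were Slx4, Mlh3 and Rmi2. Slx4, a scaffold for nucleases that cut crosslinks and recombination intermediates, had 10.6, 14 and 13.3 CPM in Ctrl and 29.9, 28.7 and 29.7 in l-FA (log2 fold change 1.22 ± 0.11, adjusted p = 0.000222). Mlh3, a mismatch repair endonuclease subunit, had 14.9, 8.09 and 15.1 CPM in Ctrl and 27.9, 33.3 and 31.3 in l-FA (log2 fold change 1.28 ± 0.23, adjusted p = 0.00391). Rmi2, which works with the BLM helicase, had 54.1, 56.4 and 53.8 CPM in Ctrl and 26.6, 26.8 and 26.5 in l-FA (log2 fold change -1.04 ± 0.043, adjusted p = 1.45e-05). The groups of none of these 3 genes overlapped. By pathway, the genes called were 3 of 12 further Fanconi genes (25%), 11 of 24 of recombination (45.8%) and 10 of 17 of sensing and checkpoint (58.8%). They were 5 of 14 of end joining (35.7%), 6 of 10 of mismatch repair (60%) and 18 of 32 tested of excision repair (56.2%). In direct reversal and translesion synthesis they were 4 of 10 (40%). The share over all genes tested was 50.5%, and no pathway was tested against it.

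Partners of the members outside the list moved in both directions, and those named here were chosen after their values were seen. Of the 17 further genes of sensing and checkpoint, 4 were higher and 6 lower (58.8% called, beside 50.5% of all genes tested). Topbp1, the activator of ATR, and Clspn, which links ATR to CHK1, were lower, with log2 fold changes of -0.42 ± 0.034 (adjusted p = 0.000152) and -0.49 ± 0.046 (adjusted p = 0.00027). Atrip, the partner of ATR, and Timeless, a replication fork protein, were higher, with log2 fold changes of 0.38 ± 0.11 (adjusted p = 0.024) and 0.46 ± 0.043 (adjusted p = 0.000268). Atrip overlaps Trex1 in the table's coordinates, and no source says if counting was strand-aware. The other called genes of this group were Trp53bp1 and Rnf168 (higher) and H2ax, Rad9a, Tipin and Wee1 (lower). Of the 12 further Fanconi genes, Slx4 was higher, and Usp1 and Faap100 were lower. Usp1, which removes ubiquitin from the Fanconi clamp, had 212, 219.5 and 209 CPM in Ctrl and 150.4, 152 and 150.2 in l-FA (log2 fold change -0.50 ± 0.028, adjusted p = 3.99e-05). Faap100, a subunit of the core complex, had a log2 fold change of -0.68 (adjusted p = 0.00201). Among 15 targets of p53, the transcription factor that damage kinases activate, 8 were higher and 2 lower (66.7% called, beside 50.5% of all genes tested). Their summed level was 156 to 157 FPKM in Ctrl and 205 to 210.1 in l-FA.

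The deposited coordinates were read as GRCm39, the build in the submitters' processing notes. On it Fancm (ENSMUSG00000055884) spans chromosome 12 from 65122377 to 65178832, Brca1 (ENSMUSG00000017146) chromosome 11 from 101379590 to 101442781, Chek1 (ENSMUSG00000032113) chromosome 9 from 36619778 to 36638361, Xrcc5 (ENSMUSG00000026187) chromosome 1 from 72346586 to 72434111, Exo1 (ENSMUSG00000039748) chromosome 1 from 175708147 to 175741055 and Lig4 (ENSMUSG00000049717) chromosome 8 from 10019049 to 10027686. The table gives 1 count per gene and none per exon. Of the 41 genes, 23 overlap another listed gene, 12 of them among the 24 called (Fancc, Fancm, Fancd2, Fanci, Brca2, Brip1, Blm, Mre11a, Nbn, Atr, Xpa and Parp1). Of the 6 just located, Fancm does (Gm47870) and the others do not.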

How the data were processed

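RNA was extracted from sorted HSCs, copied into cDNA, amplified with a SMART-Seq HT kit and sequenced on an Illumina instrument. The labels' protocol speaks of single cells, while the table has 1 column per library. The authors deposited raw counts (whole numbers, not normalized) for each gene, and FPKM values, the same counts scaled by gene length and library total. The submitters' processing notes name HISAT2, SAMtools 1.3.1, StringTie, edgeR and GRCm39; the gene annotation is not given in the sources used here. Of the 41 members, 3 shared both ends with GENCODE M21 (GRCm38), so promoter windows (GRCm38.p6) and deposited coordinates were kept apart.

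The test on deposited counts used edgeR 4.0.16 and R 4.3.3 (TMM, filterByExpr, glmQLFit and glmQLFTest on the 3 Ctrl and 3 l-FA libraries), and p-values were adjusted over 16520 of 27198 genes. Standard errors were taken from the log2 fold change and its F value, and the common biological coefficient of variation came to 0.134. The code was tested on simulated data. Deposited FPKM was used for levels between genes. Amplified reads without molecular identifiers are not independent molecules, so the binomial interval, which takes them as independent, may be too narrow.

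Members, pathways and gene lists were chosen with earlier results of these data known. Per-library values are given for members past an adjusted p of 0.05 and 0.5 on the log2 scale, further members of the same complexes, and other repair genes past 2-fold. They are also given for some genes outside that rule, such as Xpc, Xpa, Xrcc1, Parp1, Ogg1, Msh6 and Usp1. Alternatives were DESeq2 1.42.0 (the tool of the study's methods), RLE and upper-quartile factors, no filter, a minimum of 10 counts per library, a replicate block, leaving out each library, and glmTreat against 1.2-fold. Library totals alone were added after the data were seen.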

Additional observations from a re-analysis of the deposited data

How the results depend on the processing

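Of the 24 members called, Brca1, Chek1, Xrcc5 and Exo1 were called under every alternative, and 15 members in all 6 fits that left out 1 library. Lig4 was called wherever it was tested, but it passes the filter only through l-FA and is not tested where every library must have 10 counts. Of the 17 members not called, 10 were called under no alternative. The test against a 1.2-fold change gave 4516 genes, 6 members (4 higher, 2 lower) and 22 further repair genes, with 1 Fanconi, 1 recombination, 1 sensing and checkpoint, 2 end joining and 0 excision repair members; it asks for a larger change than the main test. Library totals alone gave 6 lower members (Atr, Chek1, Prkdc, Nhej1, Exo1 and Xrcc1) and 2 members past 2-fold (Lig4 and Fancm). Calls in either direction were then 3 in sensing and checkpoint, 2 in mismatch and 2 in excision repair. At least 10 counts in every library left 0 members past 2-fold, since Lig4 is then not tested. Mismatch repair had 2 calls with DESeq2 and 2 with the replicate block; the cause was not tested.

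With 1 library left out, calls ranged from 7 to 13 for lower members (7 without Ctrl library 2 or l-FA library 1), 3 to 4 for Fanconi, 3 to 7 for recombination, 3 to 5 for sensing and checkpoint, 1 to 2 for mismatch, 2 to 4 for excision repair, and 1 to 2 for members past 2-fold (2 without Ctrl library 3). A replicate block gave 7405 genes and 22 members (13 higher, 9 lower), against 8336 and 24. Libraries of equal number did not deviate together (correlations of their deviations -0.069, -0.011 and 0.011), so the numbers were not read as a pairing. Fancg, Nbn and Parp1 lost their calls with upper-quartile factors, without a filter, with the replicate block and with library totals alone. Without a filter 9123 genes and 21 members were called. Members with under 100 counts, such as Lig4 and Fancf, are limited by depth.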
